A study of Mus musculus with 15 samples.

Results

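The genes described here are 9 transcripts of sympathetic (noradrenergic) neurons: *Th*, *Dbh*, *Slc6a2*, *Slc18a2*, *Phox2a*, *Npy*, *Chga*, *Chgb* and *Hand2*. They were taken by symbol from 24982 gene symbols with read counts in each of 15 libraries of mouse aorta. All 9 passed the filter on low counts, together with 14112 other genes. They were chosen by their measured levels in these libraries, in particular their high level in 1 aorta (DHT replicate 5). Their levels and group comparisons below are therefore a description, and no test is drawn from them. The samples were whole aortas of wild-type male C57BL/6 mice aged 10 months. In all 3 groups an osmotic minipump delivered aldosterone at 200 µg/kg per day and the drinking water held 0.9% NaCl and 0.2% KCl (Aldo-salt), for 7 days. It began after 2 weeks of recovery from surgery. Control mice had a sham operation, orchiectomized mice had the testes removed, and the third group was orchiectomized and also received a pellet of dihydrotestosterone (DHT), the androgen that binds the androgen receptor without conversion to estrogen. Each group had 5 libraries, each labelled as an aorta, and no group without Aldo-salt was among them. The aortas were cleaned in RNAlater, and how much surrounding tissue stayed on each aorta is not given in the sources used here.

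Sympathetic postganglionic neurons have their cell bodies in ganglia, some of which lie along the aorta, and send axons into the outer coat of arteries, where their varicosities release noradrenaline. They make noradrenaline from tyrosine in sequence, by tyrosine hydroxylase, aromatic amino acid decarboxylase and dopamine β-hydroxylase, load it into vesicles and take it back up after release. Messenger RNA is found mostly in the cell body, so a library of aortic RNA can hold neuronal transcripts from ganglion cells, from axons or from both. In bulk tissue, fewer cells of a type and less RNA per cell cannot be told apart.

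Libraries held between 8268957 and 13816864 reads on genes. Levels are given as CPM, the read count relative to a library size scaled by TMM, and log2 CPM was computed with a prior count of 3. The aortic label was borne out by the smooth muscle genes: 8 of them, such as *Myh11* and *Acta2*, summed to between 10991 CPM (orchiectomized replicate 2) and 25004 CPM (DHT replicate 3). Orchiectomized replicate 2 stood apart in other genes. It held 22367 counts of the lung transcript *Sftpc* and 25837 counts of the cardiac myosin transcript *Myh6*. For the sympathetic neuron genes this library ranked 7 of 15.

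Promoter sequence is shown for 5 of the genes because these genes moved together across libraries and because short motifs recurred in them. RefSeq sequence from 250 bases before to 50 bases after the start site (GRCm38.p6) was available for 8 of the 9 genes, all but *Slc6a2*. The motifs were chosen after the sequences had been read. The palindrome TGACGTCA, known as the cAMP response element, was searched on both strands and was present in 3 of the 8 promoters (*Th*, *Slc18a2* and *Chgb*), against 1.79% of all 32851 promoters in the table. Its first 5 bases, TGACG, were present on either strand in 6 of 8, against 20.8% of all promoters, and every palindrome also counts as a match of this shorter motif. The homeodomain core ATTA was present on either strand in 5 of 8, against 58.0%. The paired homeodomain site, TAAT and ATTA with 3 bases between them, was in 0 of 8, against 0.487%, and TATAAA, on the forward strand only, in 1 of 8 (*Chga*), against 8.32%. A match is only a description of these letters. In the first 3 sequences capitals mark TGACGTCA, which lies 45 to 38 bases before the start site in *Th*, 72 to 65 bases before it in *Chgb*, and across the start site in *Slc18a2*. In *Chga* capitals mark TGACG, and in *Dbh* they mark the 3 ATTA cores of the stretch shown.
Th, chr7:142899996-142900095, minus strand: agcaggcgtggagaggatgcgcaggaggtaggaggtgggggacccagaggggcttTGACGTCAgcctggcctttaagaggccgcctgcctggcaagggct
Chgb, chr2:132781522-132781621, plus strand: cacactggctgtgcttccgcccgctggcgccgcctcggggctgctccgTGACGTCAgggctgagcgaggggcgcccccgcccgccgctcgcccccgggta
Slc18a2, chr19:59260788-59260887, plus strand: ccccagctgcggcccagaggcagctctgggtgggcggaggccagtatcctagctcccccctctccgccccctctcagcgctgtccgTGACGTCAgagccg
Chga, chr12:102554841-102554940, plus strand: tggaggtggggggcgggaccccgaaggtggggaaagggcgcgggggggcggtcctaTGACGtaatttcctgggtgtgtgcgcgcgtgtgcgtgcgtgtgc
Dbh, chr2:27165337-27165456, plus strand: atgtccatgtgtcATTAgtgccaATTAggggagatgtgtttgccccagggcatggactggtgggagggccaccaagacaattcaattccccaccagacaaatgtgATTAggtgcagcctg

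Of the enzymes of noradrenaline synthesis, *Th* encodes tyrosine hydroxylase, the rate-limiting enzyme, on chromosome 7 (142892779 to 142899995, GRCm38, minus strand). Its level in control replicates 1 to 5 was 7.15, 2.71, 71.8, 4.88 and 19.4 CPM. In the orchiectomized replicates it was 58.5, 14.8, 30.2, 1.79 and 61.2 CPM, and in the DHT replicates 0.427, 38.5, 8.84, 3.08 and 239 CPM. The DHT group thus held both the lowest and the highest library, with 5 and 2316 counts of *Th*, a 560-fold difference within 1 group and the widest range of the 9 genes. *Dbh*, on chromosome 2 (27165507 to 27183204, plus strand), encodes dopamine β-hydroxylase, which turns dopamine into noradrenaline. Its level was 3.17, 4.12, 113, 12.03 and 32.3 CPM in the control replicates and 50.8, 21.4, 58.6, 2.88 and 95.9 CPM in the orchiectomized replicates. In the DHT replicates it was 1.03, 68.8, 7.81, 2.10 and 196 CPM. For both enzymes control replicate 3 was the highest control library and orchiectomized replicate 4 the lowest orchiectomized library. The ranges of the 3 groups overlapped.

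The transporters followed the same libraries. *Slc6a2*, on chromosome 8 (92960470 to 93001667, plus strand), encodes the noradrenaline transporter of the axon membrane. Its level was 9.59, 11.4, 231, 25.7 and 53.2 CPM in control, 112, 38.0, 97.7, 8.24 and 138 CPM in orchiectomized, and 1.71, 94.2, 12.7, 3.58 and 281 CPM in DHT replicates 1 to 5. Here DHT replicate 5 was only 1.22-fold above control replicate 3, against 3.33-fold for *Th* and 1.74-fold for *Dbh*. *Slc18a2*, on chromosome 19 (59260878 to 59296012, plus strand), encodes the vesicular monoamine transporter, which fills synaptic vesicles and also serves other amine-storing cells such as mast cells and platelets. Its level was 10.5, 4.96, 44.4, 10.8 and 16.2 CPM in control, 37.0, 10.9, 35.0, 7.28 and 51.3 CPM in orchiectomized, and 2.99, 27.9, 9.09, 6.17 and 126 CPM in DHT replicates. Its range over the 15 libraries was 42.2-fold, narrower than the 165-fold range of *Slc6a2*.

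Of the secreted products, *Npy* encodes neuropeptide Y, the co-transmitter of noradrenaline in vasoconstrictor nerves (chromosome 6, 49822710 to 49829507, plus strand). It stood at 4.89, 2.15, 35.1, 6.16 and 16.8 CPM in the control replicates. In the orchiectomized replicates it stood at 53.5, 20.1, 19.8, 1.17 and 41.4 CPM, and in the DHT replicates at 1.03, 35.8, 12.04, 5.92 and 198 CPM. *Npy* was the gene for which DHT replicate 5 exceeded the next library most, by 3.71-fold over orchiectomized replicate 1. *Chga* (chromosome 12, 102554941 to 102565027, plus strand) and *Chgb* (chromosome 2, 132781642 to 132795079, plus strand) encode chromogranins A and B, proteins of the dense-core vesicles that store amines and peptides. The median *Chga* level was 1.27 CPM in control (range 0.281 to 17.9), 5.94 CPM in orchiectomized (0.549 to 21.4) and 1.41 CPM in DHT libraries (0.171 to 35.3). The median *Chgb* level was 2.62 CPM (1.22 to 16.0), 12.4 CPM (0.618 to 19.3) and 1.97 CPM (0.427 to 31.8). At the low end these rested on few reads, 2 of *Chga* and 5 of *Chgb* in DHT replicate 1.

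The transcription factors differed from each other. *Phox2a*, a homeodomain factor required for the noradrenergic phenotype (chromosome 7, 101818313 to 101822726, plus strand), had the lowest minimum and the lowest maximum count of the 9 genes, 1 in DHT replicate 1 and 159 in DHT replicate 5. In orchiectomized replicates 3 and 5 it had more counts than *Chga* (45 and 80 against 31 and 73). Its group medians were 0.637 CPM in control (range 0.181 to 12.8), 4.95 CPM in orchiectomized (0.275 to 8.39) and 1.11 CPM in DHT libraries (0.0855 to 16.4). *Hand2*, a basic helix-loop-helix factor of sympathetic neurons that mesenchymal and heart cells also express (chromosome 8, 57320983 to 57324517, plus strand), was the most even. It stood at 16.8, 7.02, 27.8, 9.62 and 16.0 CPM in control, 42.7, 14.6, 22.7, 14.1 and 33.2 CPM in orchiectomized, and 6.07, 24.4, 24.3, 11.7 and 74.2 CPM in DHT replicates. Its 12.2-fold range was the narrowest of the 9, and no library had fewer than 71 counts. *Phox2a* overlaps *Inppl1* on the other strand, and *Slc18a2* and *Hand2* overlap the antisense genes *Gm29261* and *Hand2os1*, which have no counts of their own in the table. Whether the counting used strand is not given in the sources used here, so these 3 genes may include reads of their partners.

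**Figure D1:**
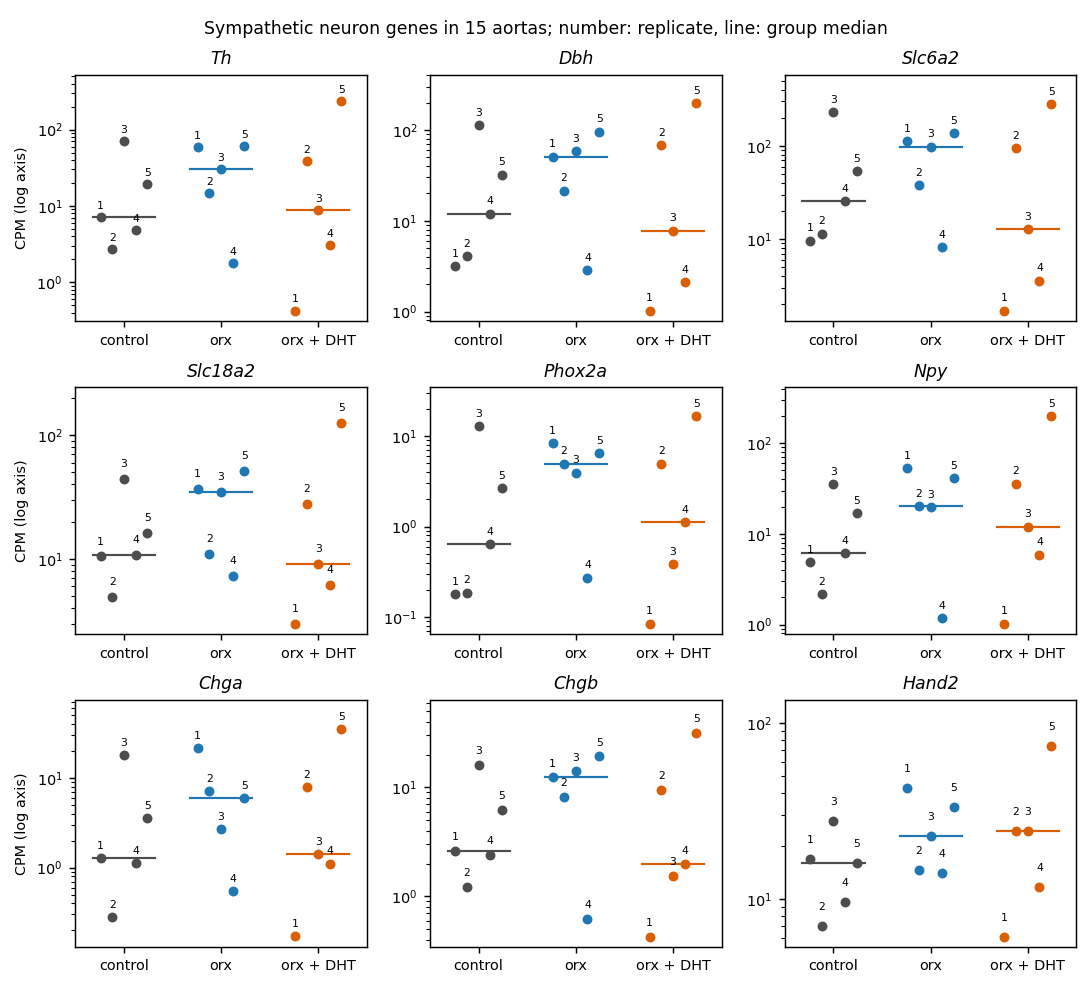
CPM (log axis) of the 9 genes in each aorta, by group (orx, orchiectomized); each point is 1 library with its replicate number, and the line is the group median. For every gene DHT replicate 5 is the highest and DHT replicate 1 the lowest of the 15 points, and the 3 groups overlap.

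Compared per kilobase of annotated exon (GENCODE vM21), *Npy* was the most abundant of the 9 genes, at a median over the 15 libraries of 29.6 CPM per kb. *Dbh* followed at 7.97, *Hand2* at 7.16, *Th* at 6.28 and *Slc6a2* at 6.05 CPM per kb. *Chgb* at 2.26, *Slc18a2* at 2.09, *Phox2a* at 1.30 and *Chga* at 0.982 CPM per kb were lower. In DHT replicate 5 the level of *Npy* was 350 CPM per kb and that of *Th* was 101 CPM per kb.

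All 9 genes ordered the libraries in nearly the same way. Their mean level on the log2 CPM scale was highest in DHT replicate 5 (6.52), followed by control replicate 3 (5.36), orchiectomized replicates 1 and 5 (5.11 and 5.05), DHT replicate 2 (4.59) and orchiectomized replicate 3 (4.32). Orchiectomized replicate 2 (3.75) and control replicate 5 (3.71) were next. The lowest libraries were control replicate 2 (1.38), orchiectomized replicate 4 (1.31) and DHT replicate 1 (0.27). Each group therefore had libraries at both ends of the order. Summed over the 9 genes, the level ran from 13.9 CPM (163 counts) in DHT replicate 1 to 1198 CPM (11600 counts) in DHT replicate 5, an 86.0-fold range. All 9 genes lay above their own 15-library median in DHT replicates 2 and 5, control replicate 3 and orchiectomized replicates 1 and 5.

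The spread between libraries of 1 group was large. The SD of log2 CPM within groups ran from 0.97 for *Hand2* to 2.44 for *Th*, whereas the median over all 14121 tested genes was 0.29. Each of the 9 genes varied more within groups than at least 95.9% of tested genes, and *Th* and *Dbh* varied more than 99.9%. Since the genes were chosen for this pattern, these shares describe the choice.

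Across the 15 libraries, which share their tissue and their preparation, the 36 pairs of these genes had Pearson correlations of log2 CPM between 0.80 and 0.99, with a median of 0.93. Without DHT replicate 5 the correlations ran from 0.75 to 0.99, with a median of 0.91. Over all 15 libraries the pairs without *Hand2* were at 0.89 or above. These correlations describe genes chosen on these levels.

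Relative to *Dbh* in the same library, the genes kept different proportions. In the 8 libraries with at least 200 counts of *Dbh*, the *Slc6a2* count was 1.37 to 2.20 times that of *Dbh*, a 1.61-fold range, although *Dbh* itself varied 9.12-fold among them. *Slc18a2* varied 1.85-fold against *Dbh* and *Th* 2.37-fold, from 0.516 times in orchiectomized replicate 3 to 1.22 times in DHT replicate 5. *Npy* ran from 0.311 times in control replicate 3 to 1.05 times in orchiectomized replicate 1, and it was near 1 also in DHT replicate 5 (1.01 times). *Chga* was the least proportional, from 0.0462 times in orchiectomized replicate 3 to 0.422 times in orchiectomized replicate 1, a 9.13-fold range. So orchiectomized replicate 3, with a *Dbh* level above that of orchiectomized replicate 1 (58.6 and 50.8 CPM), had fewer *Chga* counts (31 and 199).

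In the 7 libraries with fewer than 200 counts of *Dbh*, the ratios of *Hand2* and *Slc18a2* to *Dbh* were mostly higher. *Hand2* counts were 5.31 times those of *Dbh* in control replicate 1, 4.88 times in orchiectomized replicate 4, and 5.92, 3.11 and 5.59 times in DHT replicates 1, 3 and 4. They were only 1.70 times in control replicate 2 and 0.80 times in control replicate 4, against 0.247 to 0.841 times in the 8 libraries above. *Slc18a2* counts ran from 0.900 times those of *Dbh* in control replicate 4 to 3.31 times in control replicate 1, against 0.394 to 0.729 times in the 8 libraries. Mast cell genes were read in these libraries too. The 6 genes of that list (*Kit*, *Cpa3*, *Mcpt4*, *Cma1*, *Tpsb2* and *Fcer1a*) summed to 39.2 CPM in control replicate 3, the lowest, and 257 CPM in orchiectomized replicate 4, the highest. *Slc18a2* counts were 0.394 and 2.52 times those of *Dbh* in these libraries. In DHT replicate 1, at 2.92 times, the mast cell sum was 45.5 CPM, the lowest of the DHT libraries. The platelet list summed to 25.6 to 56.2 CPM. Of the mast cell genes, *Cpa3* and *Fcer1a* were lower in DHT-treated than in untreated orchiectomized mice (2 of 6, where 7.27% of all tested genes were lower), with log2 fold changes of -1.40 and -2.02 (SE 0.45 and 0.46). The *Cpa3* call was lost in 5 of 22 alternative fits, without DHT replicate 1, 3 or 4 (unadjusted P values 0.0203, 0.0166 and 0.0199) or orchiectomized replicate 3 or 4 (0.0176 and 0.0321). Their part in the *Slc18a2* level was not tested.

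**Figure D2:**
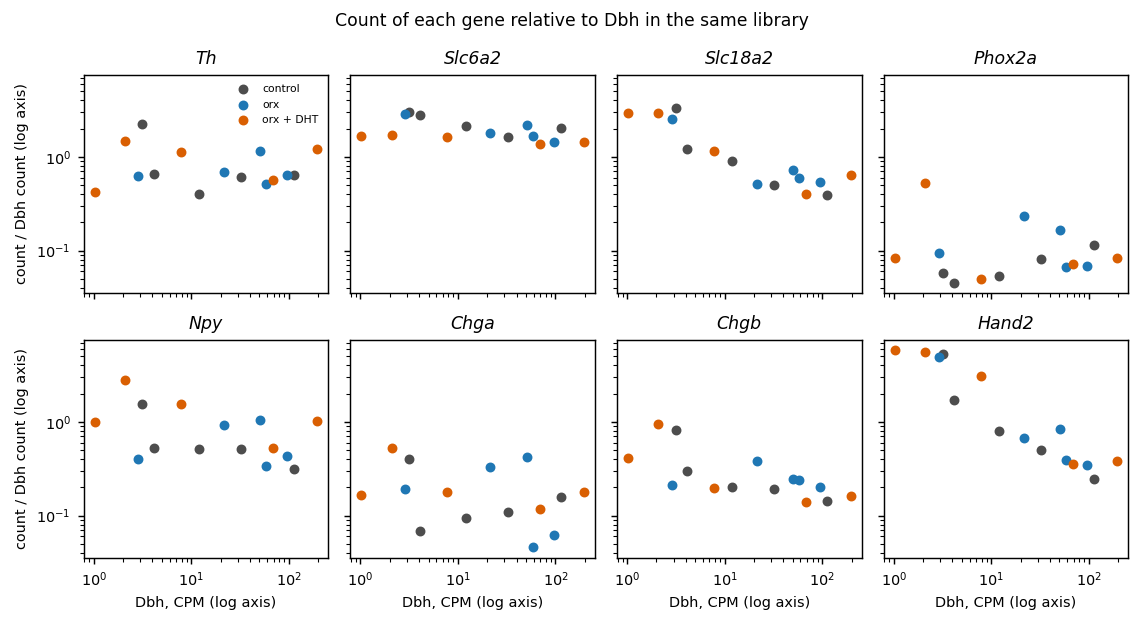
Count of each gene divided by the *Dbh* count of the same library (log axis), against the *Dbh* level in CPM (log axis), 1 point per library, so that both axes share *Dbh*. *Slc6a2* stays between 1.37 and 3.03 times *Dbh*, while *Hand2* reaches 5.92 times and *Slc18a2* 3.31 times *Dbh* among the libraries with little *Dbh*, with control replicates 2 and 4 lower.

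The group comparisons did not separate these genes. The edgeR quasi-likelihood test gave none of the 9 genes an unadjusted P value under 0.01 in orchiectomized against control mice (0 of 9, where 3.22% of the 14121 tested genes passed). The same held for DHT-treated against untreated orchiectomized mice (0 of 9, where 9.72% passed) and for DHT-treated orchiectomized against control mice (0 of 9, where 3.53% passed). At an unadjusted P value under 0.05, 0 of 9 passed in each comparison as well, where 12%, 21.2% and 11.8% of tested genes passed, and DESeq2 also gave 0 of 9 at both thresholds. With Benjamini-Hochberg adjustment, 0 of 9 were under 0.05, where 0%, 4.72% and 0.262% of tested genes were. For none of the 9 genes were the groups separate in log2 CPM in any comparison, where 1.51%, 6.44% and 3.55% of tested genes had groups that did not overlap. The first and the second comparison share the orchiectomized mice, the first and the third share the controls, and the second and the third share the DHT-treated mice. With standard errors of the log2 fold change between 0.55 and 1.25, differences of the size seen here were not detectable.

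The fitted differences were as follows. In orchiectomized against control mice the log2 fold changes of all 9 genes were positive, with a median of 0.66, from 0.26 for *Slc6a2* (SE 1.16) to 1.07 for *Npy* (SE 1.11). *Th* was at 0.66 (SE 1.24) and *Hand2*, with the smallest error, at 0.72 (SE 0.56). In DHT-treated against untreated orchiectomized mice 7 of 9 were positive, with a median of 0.26, from -0.27 for *Chgb* (SE 0.97) to 0.90 for *Npy* (SE 1.09). In DHT-treated orchiectomized against control mice all 9 were positive, with a median of 0.87 and a largest value of 1.97 for *Npy* (SE 1.13). The medians over all tested genes were 0.04, -0.02 and -0.00 in the same order.

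DHT replicate 5 set the direction of both comparisons with DHT. Without it, the median log2 fold change in DHT-treated against untreated orchiectomized mice was -1.34, with all 9 genes negative, from -1.64 for *Chgb* (SE 0.95) to -0.58 for *Hand2* (SE 0.47). Against control mice the median was then -0.70, and 2 of 9 genes were positive. None of the 9 had an unadjusted P value under 0.05 without this library either. The fit models mean counts, to which a single high library contributes most. On the log2 CPM scale the mean level of the 9 genes was 3.91 ± 1.56 in orchiectomized and 3.13 ± 2.45 in DHT-treated orchiectomized mice (SD, n = 5 each), so the direction on that scale was opposite to the fitted one already with all libraries. The control mice were at 3.00 ± 1.57 (n = 5). Control replicate 3 changed the size but not the sign of the differences. Without it, the median log2 fold change was 1.80 in orchiectomized against control mice and 2.08 in DHT-treated orchiectomized against control mice.

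**Figure D3:**
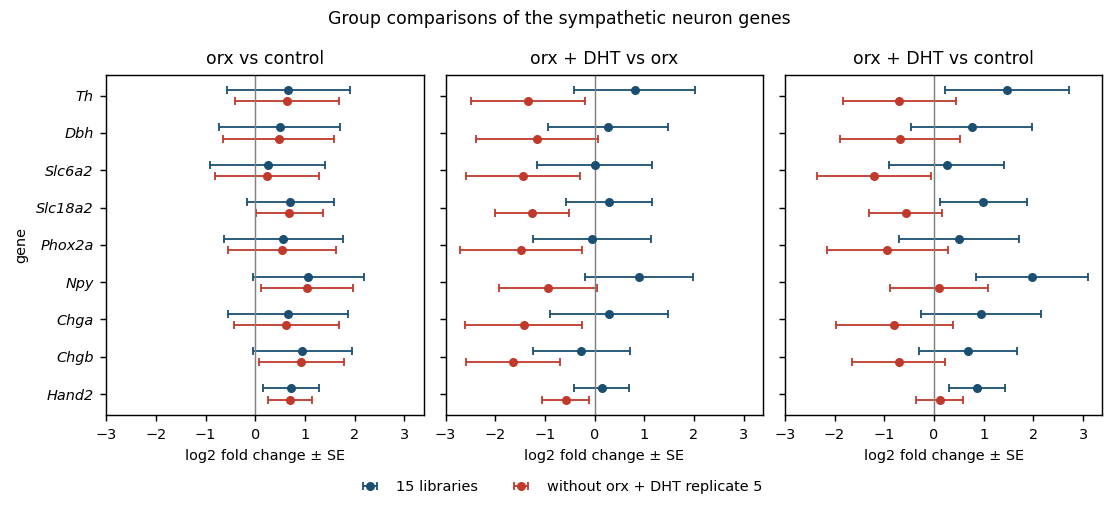
Log2 fold changes (points) with standard errors (bars) of the 9 genes in the 3 comparisons, with all 15 libraries and without DHT replicate 5 (orx, orchiectomized). Leaving out that library moves the medians of the comparisons with DHT from 0.26 to -1.34 and from 0.87 to -0.70.

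Some of the genes most like these 9 over the 15 libraries belong to the neuronal lists. The rank correlation with the mean level of the 9 genes was highest for *Hand1* (Spearman's rho 0.99), a factor related to *Hand2*, with 0.0855 CPM in DHT replicate 1 and 25.2 CPM in DHT replicate 5. Next came *Ddc*, the decarboxylase between *Th* and *Dbh* in the pathway, the synaptotagmins *Syt4*, *Syt1* and *Syt9*, the neuronal tubulin *Tubb3*, and *Celf6*, *Omp*, *Syngr3* and *Ina*, each with a rho of 0.99. Of 14112 tested genes outside the 9, 146 had a rho of at least 0.9, where the median over all of them was 0.02. Of these 146, 29 (and 5 of the first 10) were among the 57 tested genes of 5 neuronal lists (catecholamine handling, lineage regulators and trophic receptors, cytoskeleton and axon, synaptic and dense-core vesicles, and ganglionic nicotinic receptors).

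*Th* was also the gene with the highest ratio of DHT replicate 5 to the median of the other 14 libraries, at 4.28 on the log2(CPM + 0.5) scale, among 15780 genes with at least 10 counts in any library. The ranks of the others were 7 for *Chga* (3.81), 9 for *Npy* (3.74), 28 for *Dbh* (3.51), 32 for *Slc18a2* (3.48), 60 for *Slc6a2* (3.12), 95 for *Phox2a* (2.83), 116 for *Chgb* (2.72) and 249 for *Hand2* (2.14). The rest of the first 10 were *Pcsk1n*, *Cckar*, *Vgf*, *Myh2*, *Bex2*, *Mrap2* and *Stmn3*. *Pcsk1n* and *Vgf* encode proteins of the secretory granule and *Stmn3* a neuronal stathmin, while *Myh2* encodes a skeletal muscle myosin whose highest count, 564, was in DHT replicate 4.

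**Figure D4:**
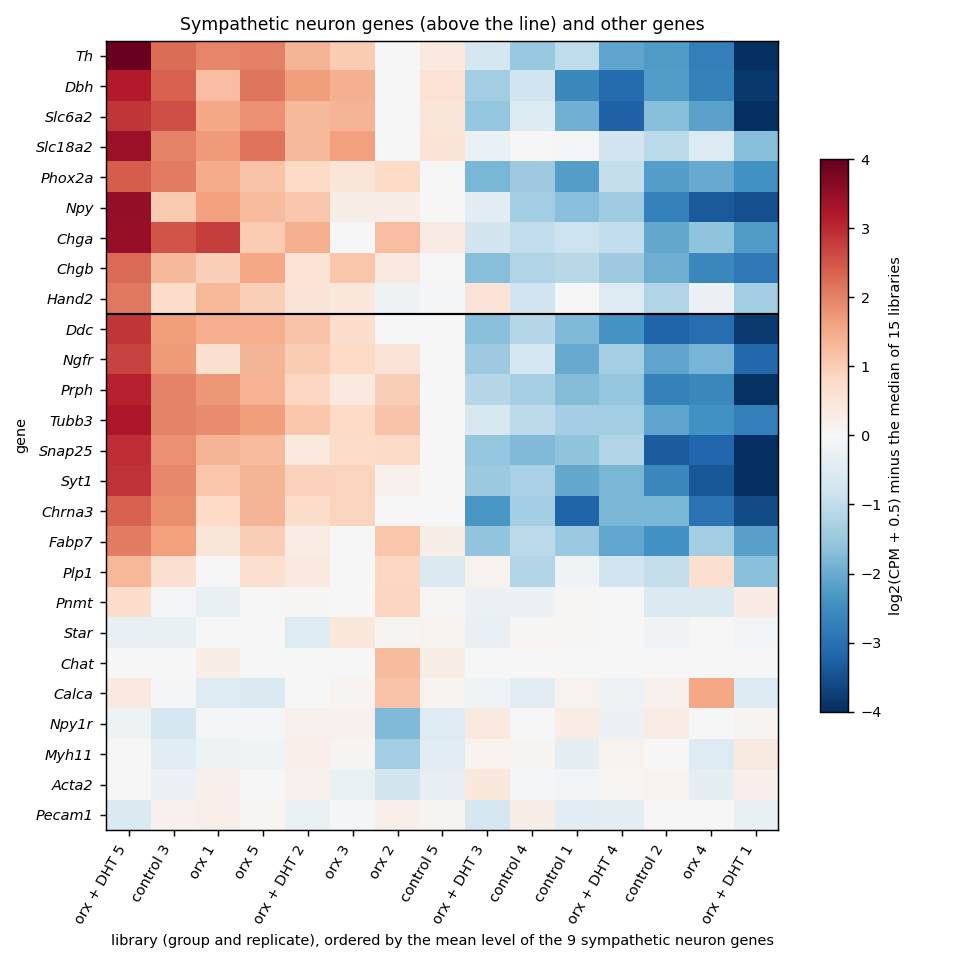
Log2(CPM + 0.5) of each gene minus its median over 15 libraries (color, limited to 4 in either direction), with libraries ordered by the mean level of the 9 genes (orx, orchiectomized). The neuronal genes from *Ddc* to *Chrna3* follow the order from DHT replicate 5 on the left to DHT replicate 1 on the right, and *Pnmt*, *Star*, *Myh11* and *Pecam1* do not.

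Most of the general neuronal genes ordered the libraries as the noradrenergic ones did. Of the 15 genes of the neuronal cytoskeleton and axon, 14 were highest in DHT replicate 5 and 12 had a rho of at least 0.9 with the 9 genes. *Tubb3* ran from 3.33 to 238 CPM, and *Prph*, the peripheral neuron filament peripherin, from 0.940 to 192 CPM. The other 3 were *Uchl1* (rho 0.69), *Mapt* (rho 0.56) and *Map1b* (rho -0.06), which had its highest level in DHT replicate 1 (688 CPM). Of the 15 genes of synaptic and dense-core vesicles, 12 were highest in DHT replicate 5 and 10 had a rho of at least 0.9, while *Cpe* (rho -0.13) and *Stx1a* (rho -0.10) did not follow the order. *Snap25*, a fusion protein of the nerve terminal, had 0 counts in its lowest library and 1349 in its highest. Of the 5 nicotinic subunit genes 3 had a rho of at least 0.9, and *Chrna7* (rho 0.43) and *Chrnb2* (rho 0.49) were below it. *Chrna3* and *Chrnb4*, subunits of the receptor through which preganglionic nerves excite ganglion cells, ran from 1 to 343 and from 2 to 213 counts. None of the tested genes of these 3 lists had an unadjusted P value under 0.01 with edgeR in any comparison (0 of 15, 0 of 15 and 0 of 4). Under 0.05 edgeR gave 1, *Stx1a* of the vesicle list, in DHT-treated against untreated orchiectomized mice, which DESeq2 also put under 0.01. DESeq2 put 1 gene of the cytoskeleton and axon list under 0.05 in that comparison.

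The lineage regulators and trophic receptors were mixed. *Ngfr*, which encodes the low-affinity neurotrophin receptor, ran from 26 counts in DHT replicate 1 to 1503 in DHT replicate 5 and followed the 9 genes (rho 0.95). Of the 11 tested genes of this list, 1 passed at an unadjusted P value under 0.01, in the second comparison, where 2.46% of all tested genes were higher and 7.27% lower with DHT. *Gfra2*, the receptor of neurturin, was lower in DHT-treated than in untreated orchiectomized mice, with a log2 fold change of -1.19 (SE 0.25, adjusted P value 0.0204 with edgeR). Its level was 21.5, 28.9, 23.5, 21.7 and 13.2 CPM in the orchiectomized replicates and 5.38, 11.97, 12.4, 8.63 and 9.71 CPM in the DHT replicates, and it did not follow the 9 genes (rho 0.28). Also lower there were 5 of 5 mesothelial, 6 of 6 lymphocyte, 3 of 6 endothelial and 2 of 6 mast cell genes. Of 7 skeletal muscle genes 4 were higher. The part of these cells in the *Gfra2* difference was not tested.

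Other genes of catecholamine handling were mixed. *Ddc* followed the 9 genes, from 8 to 1159 counts. *Gch1*, which makes the cofactor of tyrosine hydroxylase, ranged 8.84-fold and *Maoa*, a monoamine oxidase, 4.28-fold, both highest in DHT replicate 5, while *Pts*, *Spr* and *Qdpr*, also of cofactor metabolism, and *Maob* stayed within 2.72-fold. The dopamine transporter *Slc6a3* had 0 counts in 14 libraries and 1 in DHT replicate 5. *Pcbd1*, which regenerates that cofactor, ranged 22.5-fold and followed the 9 genes (rho 0.91). *Slc22a3* passed at an unadjusted P value under 0.01 in orchiectomized against control mice, where 1.13% of all tested genes were lower and 2.08% higher, and in DHT-treated against untreated orchiectomized mice.

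*Slc22a3* encodes the extraneuronal monoamine transporter, which takes catecholamines into cells other than neurons. It was 41.0, 29.9, 39.4, 26.2 and 43.7 CPM in control replicates, 24.4, 19.6, 22.5, 21.1 and 25.1 CPM in orchiectomized replicates and 44.0, 35.7, 32.3, 42.5 and 37.8 CPM in DHT replicates. Every orchiectomized library was thus below every library of both other groups. The log2 fold change was -0.67 (SE 0.14) in orchiectomized against control mice and 0.77 (SE 0.14) in DHT-treated against untreated orchiectomized mice, with adjusted P values of 0.176 and 0.0116 from edgeR. Both calls held in 22 of 22 alternative fits. *Slc22a3* did not order the libraries as the 9 neuron genes did (rho -0.18). Of all tested genes, 2.08% were higher and 1.13% lower in orchiectomized than in control mice. In DHT-treated against untreated orchiectomized mice 2.46% were higher and 7.27% lower. Lymphocyte genes moved in the same comparisons, 5 of 6 higher in orchiectomized than in control mice and 6 of 6 lower with DHT, although the *Cd3e* call in the first comparison held in 13 of 21 alternative fits and the *Cd4* call in the second in 12 of 21. Their summed level was 4.77 to 13.1 CPM in control, 6.99 to 113 CPM in orchiectomized and 2.39 to 10.2 CPM in DHT libraries. Without orchiectomized replicate 2 the highest orchiectomized value was 63.7 CPM. Of the 7 skeletal muscle genes 2 were lower in orchiectomized than in control mice (*Myh4* in 14 of 21 alternative fits and *Mylpf* in 15 of 22) and 4 higher with DHT, of which *Acta1* and *Myh2* lost the call with the replicate block (unadjusted P values 0.0115 and 0.0145). Of the 6 brown fat genes 1, *Elovl3*, was lower in orchiectomized than in control mice (in 13 of 22 alternative fits), and 1, *Dio2*, was lower with DHT (in 17 of 22). Their median log2 fold changes were -0.55 and 0.50, and their median summed level was 3132 CPM in control, 1831 CPM in orchiectomized and 2913 CPM in DHT libraries. The part of these cells in the *Slc22a3* differences was not tested.

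On the receiving side, *Npy1r*, the main neuropeptide Y receptor of vascular muscle, was read at 387 to 1715 counts and did not pass in any comparison. It was lowest in orchiectomized replicate 2 (33.6 CPM) and highest in DHT replicate 3 (153 CPM). *Npy2r* and *Npy5r* had at most 2 and 3 counts. *Dpp4*, a peptidase that cuts neuropeptide Y among other substrates, was 15.3, 8.98, 9.27, 13.2 and 19.97 CPM in control, 12.5, 28.6, 18.2, 19.7 and 10.4 CPM in orchiectomized and 3.67, 5.85, 2.43, 2.71 and 2.27 CPM in DHT replicates. All 5 DHT libraries lay below all 10 others. The log2 fold change was -2.39 (SE 0.34) against orchiectomized and -1.96 (SE 0.34) against control mice, with adjusted P values of 0.0036 and 0.0318 from edgeR. Of all tested genes, 2.46% were higher and 7.27% lower in the second comparison, against orchiectomized mice. In the third, against controls, 1.52% were higher and 2.01% lower. Of 5 mesothelial genes, all 5 were also lower in DHT-treated than in untreated orchiectomized mice at an unadjusted P value under 0.01 and 4 were lower than in controls. Their summed level was 43.5 to 350 CPM in orchiectomized, 33.0 to 87.6 CPM in control and 7.17 to 22.1 CPM in DHT libraries. The highest orchiectomized value was that of replicate 2, and without it the range was 43.5 to 81.6 CPM. Of the 6 fibroblast genes 1 was lower against orchiectomized mice (*Lum*, log2 fold change -1.90, SE 0.27), and 2 (*Lum* and *Pi16*) against controls. The *Pi16* call was lost in 5 of 22 alternative fits, among them those without DHT replicate 4 (0.0113) or 5 (0.0142) and without control replicate 3 (0.0102) or 4 (0.0115). Endothelial genes were lower too, 3 of 6 against orchiectomized mice (*Pecam1*, *Vwf* and *Tek*) and 4 of 6 against controls (also *Nos3*). Their summed level was 698 to 1045 CPM in control, 826 to 1129 CPM in orchiectomized and 540 to 733 CPM in DHT libraries. Of the lymphocyte genes given above, 6 of 6 passed against orchiectomized mice and 0 of 6 against controls. The part of these cells in the *Dpp4* difference was not tested.

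Of the factors that target tissue makes for its nerves, *Nrtn*, which encodes neurturin, was higher in DHT-treated orchiectomized than in control mice, at 47.4 ± 12.7 against 26.9 ± 6.88 CPM (SD, n = 5), a log2 fold change of 0.82 (SE 0.23, adjusted P value 0.190 with edgeR). The call held in 22 of 22 alternative fits, and the library order of *Nrtn* differed from that of the 9 neuron genes (rho 0.53).

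Markers of other cells that could hold these transcripts varied. *Pnmt*, the adrenaline-making enzyme of adrenal chromaffin cells, had 0 to 10 counts, and the 3 chromaffin genes summed to 33.5 to 120 CPM, mostly *Penk*, with its highest level in DHT replicate 2 (1310 counts). The third, *Slc18a1*, the vesicular monoamine transporter of chromaffin cells, was highest in DHT replicate 5 (84 counts, against 4 to 41 in the other 14 libraries) and had a rho of 0.76 with the 9 genes. The mean log2 CPM of the chromaffin list had a correlation of 0.635 with that of the 9 genes. *Penk* was higher in DHT-treated than in untreated orchiectomized mice, with a log2 fold change of 0.90 (SE 0.22, adjusted P value 0.0329 with edgeR). Its difference from control mice, 0.66 (SE 0.22), lost its unadjusted P value under 0.01 in 14 of 22 alternative fits, among them those without DHT replicate 2 (0.0381) and without DHT replicate 5 (0.0145). Of the 9 adrenal cortex genes, *Cyp11b2* had 0 counts in all libraries and *Cyp11b1* at most 2, and the list summed to 5.13 to 10.1 CPM. *Chat*, the marker of cholinergic neurons, had 0 to 8 counts. The cholinergic transporters *Slc18a3* and *Slc5a7* were highest in orchiectomized replicate 2 (72 and 91 counts), and *Vip* in control replicate 3 (70 counts). *Vip* also had 50 counts in orchiectomized replicate 1, and 2 in DHT replicate 5. *Slc18a3* and *Slc5a7* had 14 and 11 counts in control replicate 3 and 0 in DHT replicate 5. The sensory markers *Calca*, *Calcb*, *Tac1* and *Scn10a* had at most 29 counts, and of the 8 sensory genes only *Avil* followed the 9 genes (rho 0.87).

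Glial genes went only part of the way. The 10 genes of Schwann cells and satellite glia summed to 57.6 CPM in DHT replicate 1, 407 CPM in DHT replicate 5 and 416 CPM in orchiectomized replicate 2, and none had a rho of at least 0.9. *Fabp7*, a marker of satellite glia, followed the neuron genes most (rho 0.896, from 3 to 163 counts). *Mbp*, which encodes myelin basic protein, was highest in orchiectomized replicate 2 (134 CPM) and lowest in DHT replicate 1 (19.0 CPM). Of the 10 genes 1 passed, *Erbb3* in orchiectomized against control mice, where 2.08% of all tested genes were higher (log2 fold change 1.47, SE 0.50, adjusted P value 0.308 with edgeR), and orchiectomized replicate 2 carried it: without that library the log2 fold change was 0.73 with an unadjusted P value of 0.0665. The call held in 6 of 22 alternative fits.

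Cells of the aortic wall and of other tissue on the aorta did not order the libraries as the neuron genes did. The correlation of their mean log2 CPM with that of the 9 genes over the 15 libraries was -0.17 for smooth muscle, -0.03 for fibroblasts, 0.21 for endothelium, 0.10 for brown fat, 0.16 for cardiac muscle, -0.22 for skeletal muscle, 0.09 for lymphocytes, 0.14 for mesothelium and 0.04 for lung epithelium. It was 0.991 for the cytoskeleton and axon list, 0.995 for the vesicle list, 0.978 for the nicotinic receptors and 0.730 for glia. How much ganglion or nerve stayed on each aorta was not tested.

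**Figure D5:**
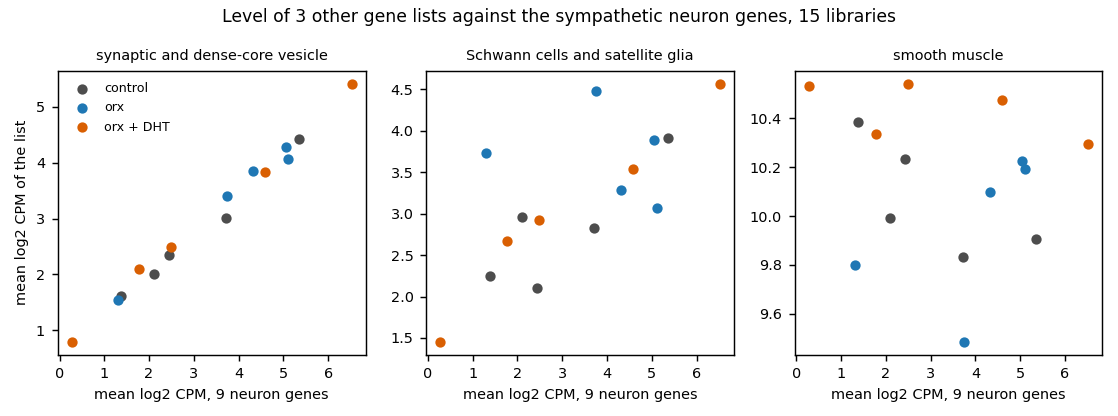
Mean log2 CPM of 3 gene lists against the mean log2 CPM of the 9 sympathetic neuron genes, 1 point per library, colored by group (orx, orchiectomized). The vesicle genes rise with the neuron genes (r 0.995), glial genes less closely (r 0.730), and smooth muscle genes do not (r -0.168).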

How the data were processed

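Each deposited file holds the raw counts the authors made for 1 library, whole numbers by gene symbol with no normalization, from poly(A)-selected RNA. Their processing notes name STAR, Cufflinks, DESeq2 and mm10, without roles or versions. The counting program, the annotation and the use of strand are not given in the sources used here. The 2 entries for reads on no gene (6.26% to 14.4%) or on several genes (1.34% to 1.97%) were left out. Groups and replicate numbers came from the labels.

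edgeR 4.0.16 under R 4.3.3 was run with filterByExpr (minimum count 10, minimum total count 15), TMM and a single quasi-likelihood fit of the 3 groups over 15 libraries. P values were Benjamini-Hochberg adjusted over the 14121 genes tested, and genes were called at an unadjusted P value under 0.01. The study also used a threshold of 0.01, and its main text does not say whether that P value was adjusted. Standard errors were taken from the fold change and its F statistic. The labels do not say whether a library is 1 mouse, so P values measure only the spread between these libraries. The procedure was tested on simulated data. The 9 genes, the gene lists and the tests were chosen with earlier results of these data known. Besides the 9, the text names genes of the other lists that were called or were high in their list, markers near 0, and the first 10 genes of each ranking. Other genes of the lists are named for their role, chosen after their values were seen. Alternatives were DESeq2 1.42.0, RLE size factors, other filters, the 2 groups alone, a replicate block and leaving out libraries. Levels from few reads, such as 1 to 10, are imprecise. Some genes of the lists are not reported here.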

Additional observations from a re-analysis of the deposited data

Results flagged for a closer look

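In orchiectomized mice, 3 of the 9 sympathetic neuron genes had a lowest library that lay far from the other 4, by the gap to its nearest neighbor divided by the whole range of log2 CPM. The library was orchiectomized replicate 4 each time, with a ratio of 0.738 for *Phox2a*, 0.728 for *Npy* and 0.731 for *Chgb*, all above Dixon's critical value for 5 libraries. *Phox2a* had 4 counts there and 45 to 80 in the others, *Npy* 17 and 227 to 509, and *Chgb* 9 and 95 to 237. In all, 27 groups of 5 libraries were examined (9 genes in 3 groups), chance marks about 1 in 20 groups, and the 9 genes vary together, so the 3 values are not separate observations. The genes were chosen on these levels, so the critical value only marks libraries here, and the ratios are a description and not a test.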

How the results depend on the processing

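The count of the 9 genes at an unadjusted P value under 0.01 was 0 in each comparison under all 22 alternatives: DESeq2, RLE size factors, a minimum of 1 count, a minimum of 10 counts per library (which leaves 5 of the 9), the 2 groups alone, the replicate block, 15 fits that each leave out a library, and 1 without DHT replicate 5 and orchiectomized replicate 2, added after seeing the data. Of 582 fold changes of these genes under the alternatives, 52 had another sign, 14 of 27 without DHT replicate 5. Only *Slc18a2* moved by more than its SD within groups, to -1.26 (DHT-treated against untreated orchiectomized mice) and -0.57 (against control mice) without DHT replicate 5, and to -1.46 and -0.56 without both libraries. Their median log2 fold change, leaving out 1 library, ran from 0.38 to 1.80 in orchiectomized against control mice, from -1.34 to 0.58 in DHT-treated against untreated orchiectomized mice and from -0.70 to 2.08 in the comparison with controls. In the same order it was 0.73, -0.15 and 0.72 with the replicate block. The replicate numbers did not pair the libraries: same-numbered libraries had correlations of their deviations from -0.47 to 0.46, with 5 of 15 over 0.1.

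Over all tested genes, 454, 1373 and 498 were called. In orchiectomized against control mice the count was 752 with a minimum of 1 count (19989 genes tested), 285 with the replicate block, 297 with the 2 groups alone, 226 without both libraries, and 252 to 716 leaving out 1 library (254 without orchiectomized replicate 2). In DHT-treated orchiectomized against control mice it was 283 without control replicate 5, 328 without DHT replicate 3 and 323 without DHT replicate 5. The causes were not tested. With 1 count of *Phox2a* or 2 of *Chga* in the lowest library, the fold ranges of these genes are imprecise.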
